A study of Mus musculus with 3 samples.

Results

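Mthfd2 and 9 partner genes of the amino acid stress response were followed through the cells of irradiated mouse livers. The members were Mthfd2, Atf4, Asns, Phgdh, Psat1, Shmt2, Chac1, Trib3, Ddit3 and Sesn2, taken as the rows of the gene table with these symbols. The 10 symbols matched 11 of the 31253 rows, because Ddit3 is listed under 2 overlapping gene IDs of which 1 held 0 UMIs. The unit of measurement was the UMI, a tag that marks 1 captured RNA molecule, and levels are given as CPM, the UMIs of a gene scaled to 1000000 UMIs of its cell class. The set was selected on levels measured in these libraries, which were known when it was drawn up. Which of the values decided is not recorded, so all of them are given as a description and none is tested.

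Single liver cells were sequenced with a droplet method that reads transcript 3′ ends, in 3 libraries, 1 per group. FL_control came from GsdmdFL/FL mice, whose Gsdmd gene is flanked by loxP sites, without irradiation. FL_IR came from GsdmdFL/FL mice 7 days after 30 Gy. dHep_IR came from Gsdmd∆Hep mice 7 days after 30 Gy, a name for deletion in hepatocytes, although its genotype tag reads gsdmd-ko and the other genotype tags read WT. The Cre driver, the deleted exons, the exposed part of the body, the age and the number of animals per library are not given in the sources used here. Because each group is a single library, groups could not be tested against each other, and all intervals below are 95% intervals of counting error only.

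The libraries held 7265 to 8214 barcodes with 52858425 to 78694038 UMIs, and 6458 to 7261 cells remained after filtering. Gsdmd, the gene named in the genotypes, was at 36.4 CPM in the library labelled FL_control, 7.21 CPM in that labelled FL_IR and 36.9 CPM in that labelled dHep_IR. It was also lowest in FL_IR within each of the 5 classes compared in all libraries. Hepatocytes could not check the label, since 104, 42 and 8 hepatocyte-like cells held 22, 2 and 1 Gsdmd UMIs. Each group name below therefore stands for the library labelled so. Were the labels of the irradiated libraries exchanged, every ratio between them would run the other way by genotype, and FL_IR against FL_control would be a comparison of both genotype and irradiation. Whether they are was not tested. Cell classes were named from marker genes and are written as X-like, and 10 to 60 barcodes were shared between any pair of libraries.

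Cells that run short of amino acids, or whose mitochondria or endoplasmic reticulum are under stress, phosphorylate the translation factor eIF2alpha, which slows protein synthesis but favours translation of the transcription factor ATF4. ATF4 is controlled mainly at translation, so its mRNA level need not follow its activity, and its known targets include genes for serine synthesis, folate metabolism, amino acid uptake and stress signalling. Mthfd2 encodes a mitochondrial enzyme of the folate cycle that is low in most adult tissue and high in dividing and activated cells, where formate from mitochondria feeds purine synthesis.

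The promoters of 4 members are shown because ATF4 pairs with C/EBP proteins on a composite motif, here searched as TGATGNAA on both strands. RefSeq promoter windows of GRCm38.p6 run from 250 bases before to 50 bases after a gene start. The motif was in the windows of 3 of the 10 genes and in 1304 of all 32851 windows, or 3.97%. Capitals mark the match, which is a description of letters and not a site or a cause. Asns lies at chr6:7693160-7693459 on the minus strand, Chac1 at chr2:119350992-119351291 on the plus strand, Trib3 at chr2:152344011-152344310 on the minus strand, and Mthfd2, shown as the gene of main interest, at chr6:83317555-83317854 on the minus strand. In Chac1 and Trib3 the match reads on the opposite strand. The RefSeq start of Mthfd2 lies inside the span that GENCODE gives the gene in the next paragraph, so the annotations place its start differently and the window shown is that of the RefSeq start.
Asns: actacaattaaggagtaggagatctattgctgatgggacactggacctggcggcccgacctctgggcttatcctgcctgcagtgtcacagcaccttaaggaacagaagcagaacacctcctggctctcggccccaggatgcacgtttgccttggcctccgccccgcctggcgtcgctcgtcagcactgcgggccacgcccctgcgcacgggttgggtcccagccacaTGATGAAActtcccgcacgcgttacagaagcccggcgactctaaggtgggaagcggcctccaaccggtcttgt
Chac1: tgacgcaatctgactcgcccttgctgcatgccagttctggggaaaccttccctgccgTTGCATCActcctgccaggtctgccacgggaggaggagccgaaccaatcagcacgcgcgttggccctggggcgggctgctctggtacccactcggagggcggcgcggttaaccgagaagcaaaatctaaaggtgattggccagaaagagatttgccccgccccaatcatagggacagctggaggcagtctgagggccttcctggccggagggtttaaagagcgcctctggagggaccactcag
Trib3: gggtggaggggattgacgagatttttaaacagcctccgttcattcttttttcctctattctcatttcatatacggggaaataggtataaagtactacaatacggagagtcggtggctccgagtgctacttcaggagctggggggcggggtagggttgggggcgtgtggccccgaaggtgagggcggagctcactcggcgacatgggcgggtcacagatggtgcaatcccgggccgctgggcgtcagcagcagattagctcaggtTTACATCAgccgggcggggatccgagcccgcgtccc
Mthfd2: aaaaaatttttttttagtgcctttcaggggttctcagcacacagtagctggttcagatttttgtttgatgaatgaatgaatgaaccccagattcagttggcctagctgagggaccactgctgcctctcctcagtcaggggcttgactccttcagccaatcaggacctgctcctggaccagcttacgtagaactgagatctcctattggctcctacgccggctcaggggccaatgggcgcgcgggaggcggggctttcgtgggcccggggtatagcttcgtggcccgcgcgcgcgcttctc

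In the GENCODE annotation of GRCm38, Mthfd2 spans chr6:83305691-83325908 and Asns chr6:7675169-7693254, both on the minus strand. Shmt2 is at chr10:127517123-127522444, Phgdh at chr3:98313170-98339990, Psat1 at chr19:15904678-15947337, Trib3 at chr2:152337422-152344032 and Sesn2 at chr4:132492032-132510501, also on the minus strand. Atf4 at chr15:80255184-80257541, Chac1 at chr2:119351229-119354381 and Ddit3 at chr10:127290774-127296288 are on the plus strand. All are annotated as protein-coding, and the files give 1 count per gene and cell with no exon or UTR.

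Mthfd2 was highest in the class named dendritic-like and, in dHep_IR, also in Kupffer-like and lymphoid cells. Over the 24 sums of a class and library with at least 50 cells, its level ran from 1.19 CPM in neutrophil-like cells of FL_control to 61.5 CPM in conventional dendritic (cDC-like) cells of FL_control. The cDC-like cells of dHep_IR followed at 57.9 CPM and the Kupffer-like cells of dHep_IR at 53.4 CPM, and the counting intervals of these 3 neighbours overlapped. T-like cells of dHep_IR came next at 47.0 CPM and NK or ILC1-like cells of dHep_IR at 37.1 CPM. Kupffer-like cells of FL_control and FL_IR stood far lower in that order, at 5.96 and 2.88 CPM. Endothelial-like cells stayed low at 1.86, 3.17 and 3.33 CPM in FL_control, FL_IR and dHep_IR. The cDC-like cluster had none of its own markers among its 10 leading genes, so its name rests on detected markers only. Those 10 genes included the proliferation genes Top2a and Ube2c. A UMI of a proliferation gene was seen in 46.0% of its cells in FL_control and 43.2% in dHep_IR.

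The classes that supplied Mthfd2 differed between libraries. FL_control held 456 Mthfd2 UMIs, of which T-like cells gave 28.5% and cDC-like cells 26.5%. FL_IR held 220 UMIs, led by neutrophil-like cells with 25.9% and monocyte-like cells with 24.6%. dHep_IR held 854 UMIs, led by monocyte-like cells with 35.1% and Kupffer-like cells with 21.2%. These shares follow cell numbers as well as levels, as T-like cells numbered 595, 111 and 208 and Kupffer-like cells 570, 452 and 364 in the same order.

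**Figure D1:**
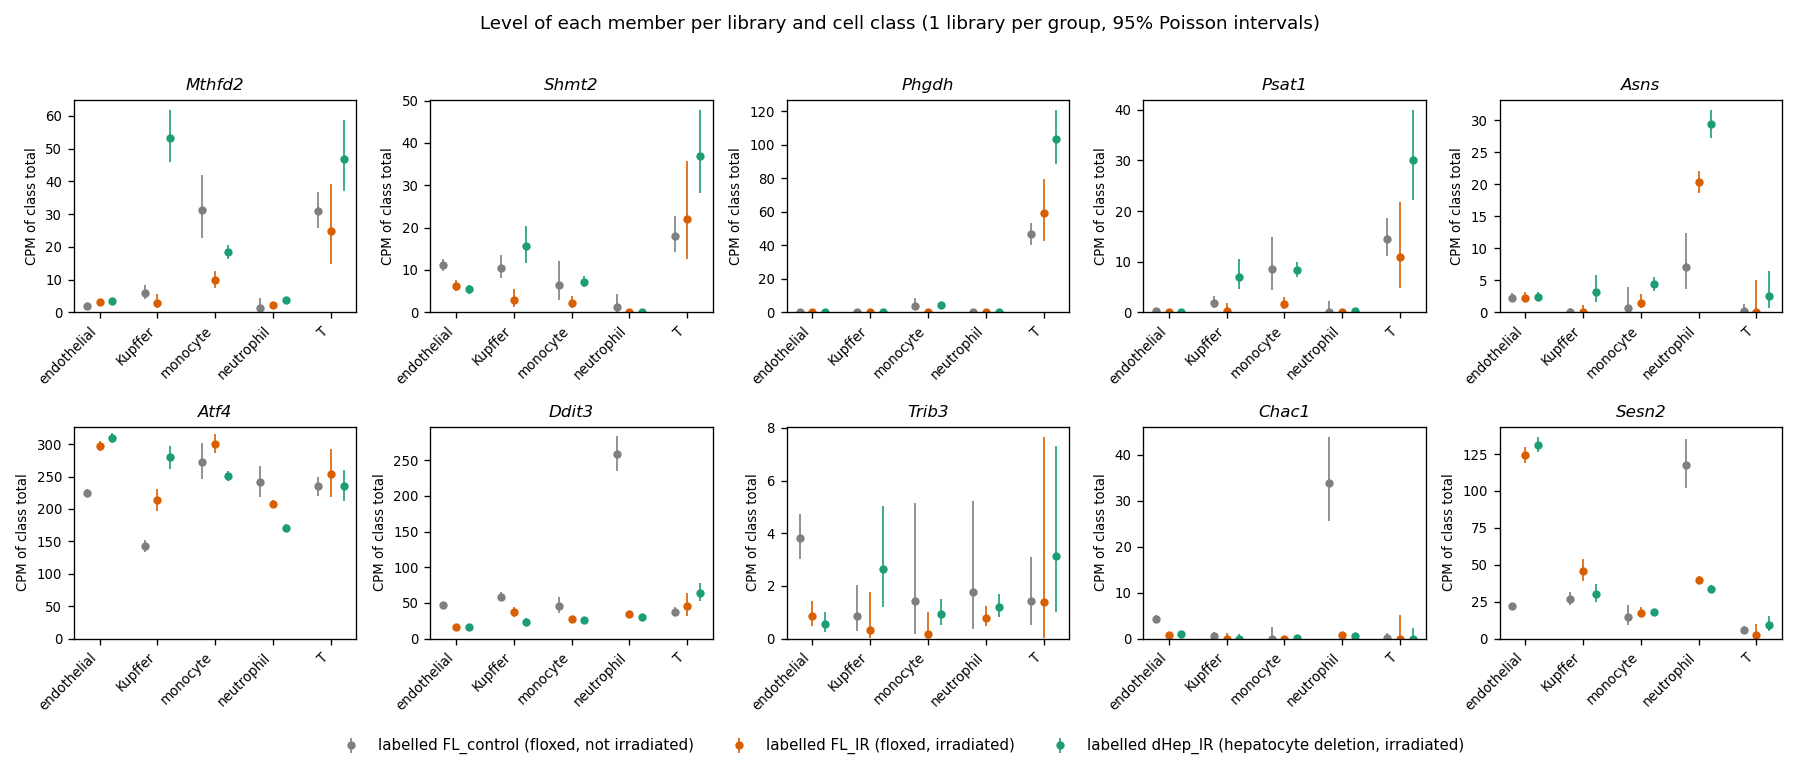
Level of each of the 10 members in the cell classes compared in all 3 libraries, in CPM of the class total, 1 point per library. Bars are 95% counting intervals. Mthfd2 in Kupffer-like cells stands at 5.96, 2.88 and 53.4 CPM, Sesn2 in endothelial-like cells at 21.8, 124 and 131 CPM.

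Kupffer-like cells, the resident macrophages of the liver, had the widest gap in Mthfd2 between the irradiated libraries. Their Mthfd2 level was 5.96 CPM in FL_control (34 UMIs), 2.88 CPM in FL_IR (9 UMIs) and 53.4 CPM in dHep_IR (181 UMIs). Only dHep_IR stood high, at 18.5 times FL_IR (9.55 to 41.2) and 8.95 times FL_control (6.18 to 13.3). By ratio to FL_IR, Mthfd2 was gene 7 of the 9603 measured in these cells. The set was selected on these data, so this rank is a description and carries no test. FL_IR was 2.07-fold below FL_control, with an interval of 0.973 to 4.91 that includes no difference.

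Mthfd2 in Kupffer-like cells of dHep_IR came from many cells, and the tenth of the cells with the most Mthfd2 held 61.3% of its UMIs. At least 1 Mthfd2 UMI was seen in 24 of 570 cells of FL_control (4.21%, exact interval 2.72 to 6.2), 9 of 452 of FL_IR (1.99%, 0.914 to 3.75) and 100 of 364 of dHep_IR (27.5%, 22.9 to 32.4). After thinning to 2000 UMIs the shares were 0.977%, 0.610% and 7.77%. Shallower cells were left out there, so these are shares of 512, 328 and 296 cells. Over all Kupffer-like cells, median UMIs per cell were 9505, 4929 and 7014, so FL_control was deepest and dHep_IR had the highest share. Neutrophil-like cells, a class with low Mthfd2 in each library, had a UMI in 0.218%, 2.18% and 4.16% of cells at median depths of 3489, 9852 and 13267 UMIs. In dHep_IR 44 Kupffer-like cells held at least 2 Mthfd2 UMIs, in FL_control 7 and in FL_IR 0.

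**Figure D2:**
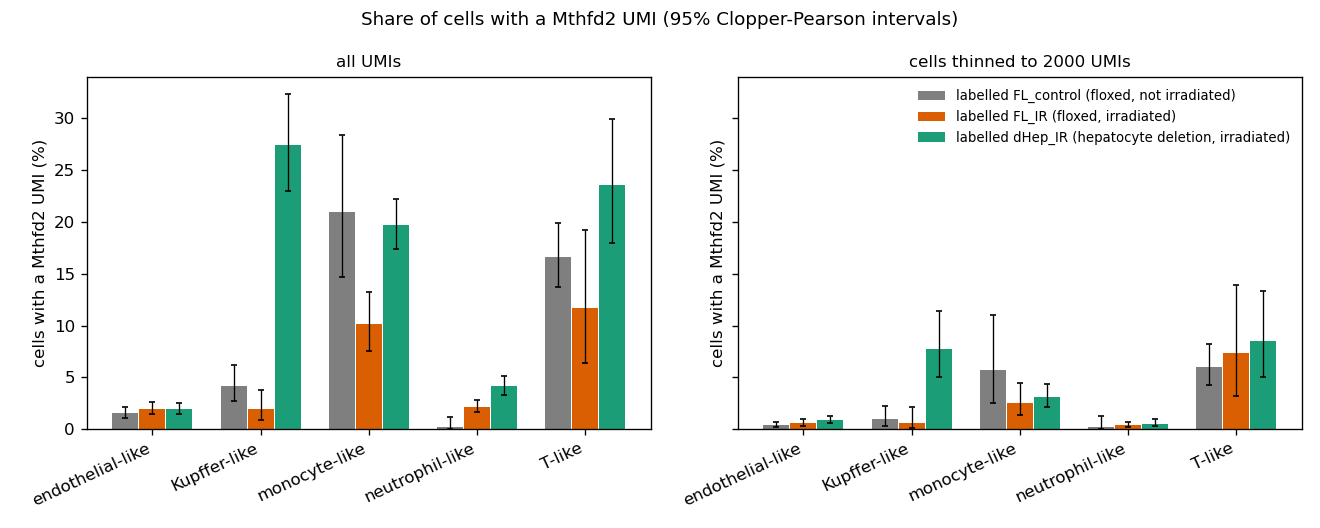
Percent of cells with at least 1 Mthfd2 UMI by class and library, unthinned in one panel and thinned to 2000 UMIs in the other. Cells with fewer than 2000 UMIs are left out of the thinned panel. Bars are exact 95% binomial intervals over cells, and in Kupffer-like cells dHep_IR stands at 27.5% unthinned and 7.77% thinned.

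The Kupffer-like cells of the libraries fell in different clusters, with 564 of the 570 cells of FL_control in cluster 11, and 451 of 452 of FL_IR and 362 of 364 of dHep_IR in cluster 3. The irradiated comparison thus lay within 1 cluster. Limiting the class to cells without a UMI of 5 monocyte markers left Mthfd2 at 5.61, 2.81 and 48.5 CPM in 517, 388 and 293 cells. Limiting it to cells with at least 4 of 7 Kupffer markers gave 6.03, 2.88 and 53.4 CPM. Both limits were chosen after seeing the data. Monocyte markers summed to 328, 288 and 356 CPM in these cells, neutrophil markers to 151, 2696 and 2010 CPM and NK markers to 6.14, 1.60 and 34.2 CPM. Mthfd2 in dHep_IR was 31.5 CPM in Kupffer-like cells with a proliferation UMI and 59.7 CPM in those without.

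Shmt2, the mitochondrial enzyme that splits serine into glycine and a folate-bound carbon just before the Mthfd2 step, was lowest in FL_IR in macrophage classes. Kupffer-like cells had 10.5 CPM in FL_control (60 UMIs), 2.88 CPM in FL_IR (9 UMIs) and 15.6 CPM in dHep_IR (53 UMIs). FL_IR thus stood apart, 3.65-fold below FL_control (1.8 to 8.38), and dHep_IR was 5.43-fold above it (2.65 to 12.5). dHep_IR was 1.49-fold above FL_control (1.01 to 2.19). Endothelial-like cells held 39.2% of the Shmt2 UMIs of FL_control and had 11.1, 6.22 and 5.40 CPM, lower in both irradiated libraries.

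Psat1 makes the second step of serine synthesis. In Kupffer-like cells the control, FL_IR and dHep_IR libraries gave 10, 1 and 24 UMIs, or 1.75, 0.320 and 7.07 CPM. dHep_IR was highest, 4.03-fold above FL_control (1.86 to 9.45), and its ratio to the single UMI of FL_IR was 22.1 with an interval of 3.61 to 909. Phgdh, the first and committed enzyme of that pathway, had 0, 0 and 1 UMIs in the same cells, so Kupffer-like cells showed Psat1 and Shmt2 with next to no Phgdh at this depth. A count of 0 allows up to 0.526 CPM in FL_control and 0.960 CPM in FL_IR.

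Monocyte-like cells showed serine enzymes in a different balance. Psat1 was at 8.54, 1.62 and 8.33 CPM (12, 9 and 136 UMIs), lowest in FL_IR, with dHep_IR 5.13-fold higher (2.63 to 11.5). Shmt2 was at 6.4, 2.17 and 7.23 CPM, with dHep_IR 3.34-fold above FL_IR (1.84 to 6.65). Phgdh had 5, 0 and 72 UMIs. Against a floor of 3 counts in FL_IR the ratio of dHep_IR was 8.15, and the lower interval bound from the counts was 6.46. In this class Kupffer markers summed to 373, 337 and 1255 CPM and endothelial markers to 957, 292 and 632 CPM, with all 11 Kupffer markers detected in each library, and their part in these results was not tested. Beside FL_control, however, dHep_IR had ratios of 0.976 for Psat1 (0.541 to 1.94), 1.13 for Shmt2 (0.575 to 2.53) and 1.24 for Phgdh (0.508 to 3.94).

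Mthfd2 in monocyte-like cells was at 31.3 CPM in FL_control (44 UMIs), 9.74 CPM in FL_IR (54 UMIs) and 18.4 CPM in dHep_IR (300 UMIs). FL_IR was 3.21-fold below FL_control (2.11 to 4.87) and dHep_IR 1.89-fold above FL_IR (1.41 to 2.57). The clusters differed here too, since all 148 cells of FL_control were in cluster 8, while 431 of 472 cells of FL_IR and 557 of 1096 of dHep_IR were in cluster 28. Within cluster 28 alone, Mthfd2 was at 9.85 and 12.4 CPM in FL_IR and dHep_IR, Psat1 at 1.77 and 7.95 CPM, and Shmt2 at 2.17 and 4.53 CPM. The gap in Mthfd2 was thus narrower inside that cluster, while Phgdh still had 0 and 29 UMIs.

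Proliferation genes were seen in more monocyte-like cells of dHep_IR than of the other libraries. The share with a UMI of a proliferation gene was 10.8%, 14.2% and 35.9%, at median depths of 9957, 11574 and 14684 UMIs. In dHep_IR, Psat1 was at 12.2 CPM in cells with such a UMI and 5.74 CPM in cells without, and Phgdh at 6.1 and 3.28 CPM. Mthfd2 was at 19.7 and 17.5 CPM, so it was less split by proliferation than Psat1. The part of proliferation in the differences between libraries was not tested.

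Lymphoid and dendritic cells were the main sites of Phgdh. T-like cells, in clusters 6 and 9 for FL_control and in cluster 9 for nearly every irradiated cell, had Phgdh at 46.5, 59.2 and 103 CPM (195, 43 and 165 UMIs), with dHep_IR highest at 2.23-fold above FL_control (1.8 to 2.75). Psat1 was at 14.5, 11 and 30.1 CPM in these cells, Shmt2 at 18.1, 22 and 37.0 CPM and Mthfd2 at 31.0, 24.8 and 47.0 CPM. These 4 genes were thus highest in dHep_IR, where 24.5% of T-like cells had a proliferation UMI beside 16% in FL_control and 16.2% in FL_IR. Phgdh in T-like cells of dHep_IR was 184 CPM with a proliferation UMI and 46.1 CPM without, and in FL_control 85.2 and 36.0 CPM. In T-like cells without such a UMI, Phgdh was at 36.0, 40.6 and 46.1 CPM, so the libraries lay closer together. Mthfd2 in these cells was at 24.5, 19.4 and 45 CPM, with dHep_IR still apart, beside 54.9, 43.5 and 49.8 CPM in cells with such a UMI.

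The T-like differences depended on how finely the cells were clustered. At Leiden resolution 2 the members at least 2-fold apart went from 3 to 0 for dHep_IR against FL_control and from 1 to 0 for dHep_IR against FL_IR. At that resolution a cluster of 50 cells, named NK or ILC1-like and with Mki67 and Top2a among its 10 leading genes, stood apart with 28, 1 and 21 cells. NK markers summed to 764, 281 and 1046 CPM in the T-like class as first clustered, highest in dHep_IR. The part of proliferation and of NK cells was not tested.

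In cDC-like cells, of which FL_IR held only 5, Phgdh was at 21.4 CPM in FL_control (42 UMIs) and 133 CPM in dHep_IR (204 UMIs). That is 6.21-fold higher (4.44 to 8.88). Psat1 was 3.55-fold higher (2.04 to 6.47) and Shmt2 3.04-fold higher (1.95 to 4.87), whereas Mthfd2 was at 61.5 and 57.9 CPM, a ratio of 0.941 (0.707 to 1.25). In cells without a proliferation UMI, Shmt2 was at 9.74 and 9.16 CPM and Mthfd2 at 51.5 and 19.8 CPM, while Phgdh was at 4.17 and 58.0 CPM. Psat1 there was at 5.56 and 13.7 CPM on only 4 and 9 UMIs, so of these 4 genes Phgdh and Psat1 had the higher level in dHep_IR. At Leiden resolution 2 the members at least 2-fold apart went from 4 to 2 in this class, which then held 191 cells in place of 230. At that resolution a Kupffer-like cluster of 51 cells, with Top2a and Mki67 among its 10 leading genes, stood apart with 32, 2 and 17 cells. Kupffer markers summed to 4227 and 1979 CPM in the cDC-like class and endothelial markers to 2499 and 551 CPM, both lower in dHep_IR, and the part of other cells was not tested.

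In NK or ILC1-like cells Mthfd2 was at 6.82 CPM in FL_control and 37.1 CPM in dHep_IR on only 8 and 16 UMIs, a ratio of 5.45 (2.20 to 14.7). Phgdh there was at 31.5 and 78.9 CPM. T markers summed to 1227 and 492 CPM in that class and neutrophil markers to 72.5 and 1133 CPM, and their part was not tested.

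Asns, which makes asparagine from aspartate and glutamine, had most of its UMIs in neutrophil-like cells in the irradiated libraries. Neutrophil-like cells held 508 of the 604 Asns UMIs of FL_IR (84.1%) and 735 of the 980 of dHep_IR (75.0%), but 12 of the 110 of FL_control. These shares follow cell numbers as well as levels, with 459, 2342 and 1850 neutrophil-like cells in FL_control, FL_IR and dHep_IR. The level there was 7.14 CPM in FL_control, 20.3 CPM in FL_IR and 29.4 CPM in dHep_IR. Both irradiated libraries were higher than FL_control, by 2.85-fold (1.62 to 5.55) and 4.11-fold (2.34 to 8.0), and dHep_IR was 1.45-fold above FL_IR (1.29 to 1.62). The 4 clusters that held most irradiated neutrophil-like cells ranged from 17.3 to 35.9 CPM, and the control cluster stood at 6.62 CPM. These clusters, 21, 22, 24 and 27, held 628, 1261, 324 and 129 cells of FL_IR and 471, 533, 722 and 122 of dHep_IR. The part of this different mix in the Asns values was not tested.

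Among the other classes Asns was sparse in some but not in all. Cholangiocyte-like cells had 16.3 CPM in FL_control and 28.2 CPM in dHep_IR (10 and 72 UMIs), near the 29.4 CPM of neutrophil-like cells of dHep_IR. Their neutrophil markers summed to 60.4 and 6576 CPM, whose part was not tested. In cDC-like cells Asns was at 0.509 and 17.6 CPM (1 and 27 UMIs), and those 27 were all in cells with a proliferation UMI. Endothelial-like cells had 2.28, 2.26 and 2.40 CPM, with a ratio of 0.992 for FL_IR against FL_control (0.629 to 1.55). Kupffer-like cells had 0, 0 and 11 UMIs. Monocyte-like cells had 1, 8 and 71 UMIs, or 0.711, 1.44 and 4.35 CPM, with dHep_IR 3.01-fold above FL_IR (1.45 to 7.25). Neutrophil markers summed to 637, 12360 and 26320 CPM in the monocyte-like class, and their part in this result was not tested. Hepatocyte-like cells of FL_control, 104 in all, had 29 Asns UMIs, or 37.5 CPM.

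Atf4 itself was abundant in each of the 5 classes compared in all libraries. Its levels were 224, 297 and 310 CPM in endothelial-like cells, 272, 301 and 250 CPM in monocyte-like cells and 235, 253 and 236 CPM in T-like cells. In neutrophil-like cells Atf4 was at 242, 208 and 171 CPM, lowest in dHep_IR. Its ratio there was 0.708 for dHep_IR against FL_control (0.639 to 0.786), a log2 ratio of -0.50 that was 0.44 with TMM factors. In Kupffer-like cells Atf4 was at 143, 213 and 279 CPM, the widest spread among these classes. FL_IR had 1.5 times the level of FL_control (1.35 to 1.66) and dHep_IR 1.96 times (1.78 to 2.16), a log2 ratio of 0.97 that was 1.11 with TMM factors and so past 2-fold. Against FL_IR, the dHep_IR ratio for Atf4 was 1.31, far under the 18.5 of Mthfd2 in the same cells.

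Ddit3, Trib3 and Chac1, the arm of the response tied to stress signalling and cell death, were lower in irradiated endothelial-like cells. Ddit3, which encodes the factor CHOP, was at 47.0, 16.5 and 16 CPM (1011, 271 and 293 UMIs), and FL_IR was 2.84-fold below FL_control (2.48 to 3.26). Trib3, a pseudokinase that restrains ATF4, was at 3.81, 0.854 and 0.545 CPM, 4.46-fold lower in FL_IR (2.51 to 8.51). Chac1, which degrades glutathione, was at 4.18, 0.793 and 0.927 CPM, 5.27-fold lower (2.93 to 10.3). The irradiated libraries were close to each other in each of these genes, with intervals of their ratio that include 1.

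In neutrophil-like cells the same arm differed more. Chac1 had 57 UMIs in FL_control and 19 and 16 in the far larger irradiated sums, which is 33.9, 0.760 and 0.639 CPM, or 44.6-fold lower in FL_IR (26.1 to 79.4). Ddit3 was at 258, 33.9 and 29.6 CPM, 7.62-fold lower in FL_IR (6.77 to 8.57). Only FL_control was high in both. Its neutrophil-like cells were also shallower. Of a dissociation stress list, 11 of 16 genes were at least 2-fold lower in FL_IR, beside 32.7% of all genes measured in these cells. The median log2 ratio was -1.44 for the list and -0.53 over all genes. Of the 459 neutrophil-like cells of FL_control, 452 were in cluster 2, which held 0 cells of FL_IR and 2 of dHep_IR. Cluster 2 had 9 of the 12 neutrophil markers in at least 10% of its cells. The irradiated clusters 21, 22, 24 and 27 had all 12. The part of cell state, handling and depth in these values was not tested.

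Scaling matters in neutrophil-like cells. The median log2 ratio of all measured genes there was -0.53 for FL_IR against FL_control, and TMM factors moved every ratio up by 0.85. With TMM factors the log2 ratio was 2.36 for Asns in place of 1.51, -4.63 for Chac1 in place of -5.48 and -2.08 for Ddit3 in place of -2.93. Atf4 turned from -0.22 to 0.63.

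Kupffer-like cells kept Ddit3 at 58.4, 37.1 and 23 CPM, lowest in dHep_IR, where Mthfd2 was highest. dHep_IR was 2.54-fold below FL_control (1.98 to 3.29). Trib3 had 5, 1 and 9 UMIs and Chac1 3, 0 and 0 in these cells, too few for a ratio.

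Sesn2, an inhibitor of mTORC1 signalling that is a target of both ATF4 and p53, marked irradiated endothelial-like cells. Its level was 21.8 CPM in FL_control (470 UMIs), 124 CPM in FL_IR (2037 UMIs) and 131 CPM in dHep_IR (2412 UMIs). FL_IR stood 5.69-fold above FL_control (5.15 to 6.31), and the irradiated libraries had a ratio of 1.06 (0.997 to 1.12). Cells with at least 1 Sesn2 UMI were 389 of 2509, 1215 of 2448 and 1472 of 2866. After thinning to 2000 UMIs the shares were 4.19%, 20.4% and 23.2% of the 2313, 2405 and 2773 cells deep enough for it.

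The endothelial-like cells of FL_control were mostly in cluster 0, and those of the irradiated libraries in clusters 15, 16, 17 and 23. Sesn2 was at 22.2 CPM in cluster 0 and at 104 to 142 CPM in each of the irradiated clusters and libraries, so no single cluster carried the difference. Neutrophil markers summed to 50.9, 1413 and 1639 CPM in endothelial-like cells, while Sesn2 in neutrophil-like cells was at 118, 40.0 and 33.9 CPM. There FL_IR was 2.94-fold lower than FL_control (2.52 to 3.43), a log2 ratio of -1.56 that was -0.71 with TMM factors. Kupffer-like cells had 27.2, 46.1 and 30.4 CPM and monocyte-like cells 14.9, 17.7 and 17.8 CPM. Cholangiocyte-like cells had 1 Sesn2 UMI in FL_control and 53 in dHep_IR, a ratio of 12.7 (2.19 to 512), and their neutrophil markers summed to 60.4 and 6576 CPM.

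**Figure D3:**
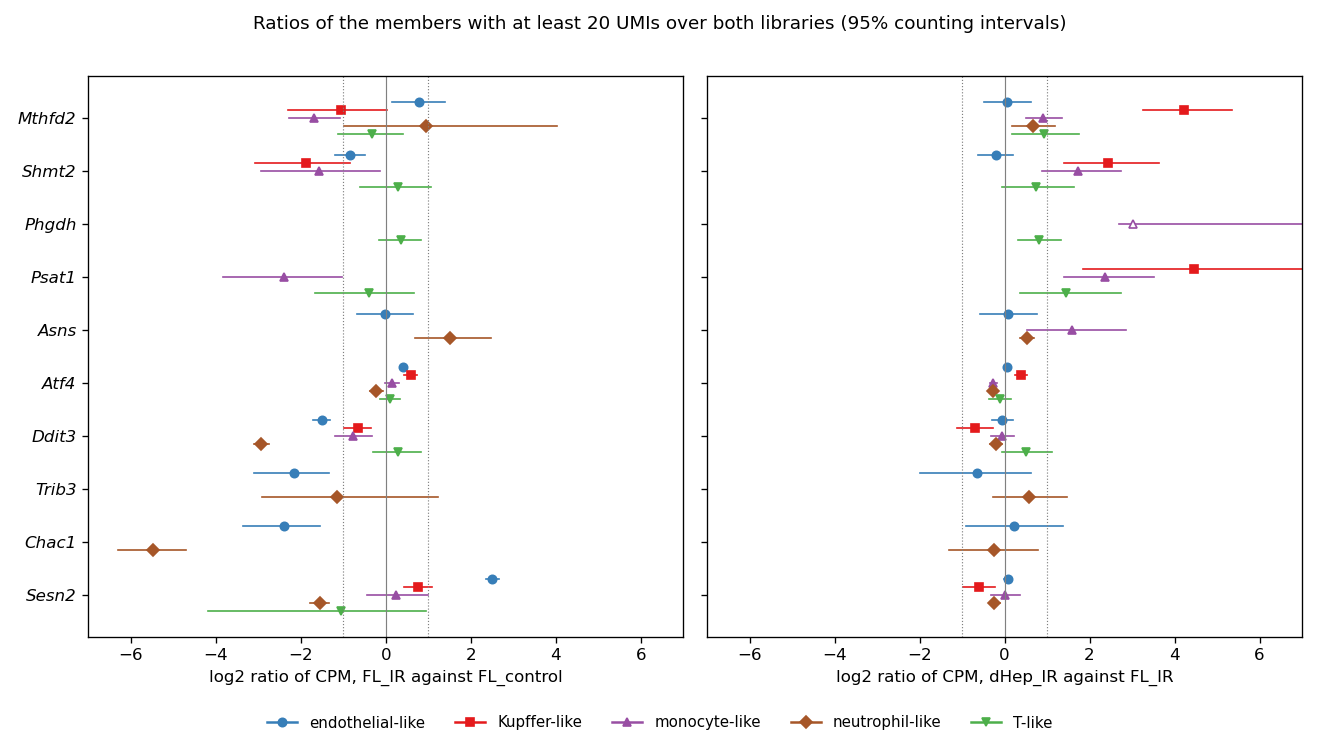
Log2 ratio of each member by class, with FL_IR against FL_control on the left and dHep_IR against FL_IR on the right, and 95% counting intervals as lines that are drawn only to the edge of the axis. An open point is taken at a floor of 3 counts. Mthfd2 in Kupffer-like cells stands at 4.21 for dHep_IR against FL_IR and Sesn2 in endothelial-like cells at 2.51 for FL_IR against FL_control.

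For a count of members, a difference of at least 2-fold with at least 20 UMIs over both libraries was taken as past the threshold. The comparisons below share libraries, so their counts are not independent of each other. For FL_IR against FL_control, endothelial-like cells had 8 of the 10 members with enough UMIs, 1 higher and 3 lower, beside 9.56% higher and 16.2% lower of all genes. Kupffer-like cells had 5 measured members, 0 higher and 2 lower, beside 6.72% and 8.8% of all genes. Monocyte-like cells had 6, with 0 higher and 3 lower beside 7.61% and 13.5%. Neutrophil-like cells had 7, with 1 higher and 4 lower beside 8.17% and 32.7%. T-like cells had 7, with 0 higher and 1 lower beside 4.0% and 10.1%. Lower members thus outnumbered higher ones in each of these 5 classes, as lower genes did among all genes. Members whose interval includes 1 were counted too, here Mthfd2 in Kupffer-like, Trib3 in neutrophil-like and Sesn2 in T-like cells. The T-like case rests on Sesn2 alone, with 2 UMIs in FL_IR and 24 in FL_control. With TMM factors the split of all genes became 24% higher and 14.7% lower in neutrophil-like cells, with 2 members higher (Mthfd2 and Asns) and 2 lower (Ddit3 and Chac1), and 10.6% and 10.3% in monocyte-like cells.

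For dHep_IR against FL_IR the past-threshold members were all on the higher side. Kupffer-like cells had 3 of 6 measured members higher and 0 lower, beside 3.03% and 6.61% of all genes. Monocyte-like cells had 4 of 8 higher and 0 lower, beside 7.04% and 3.38%. T-like cells had 1 of 6 higher and 0 lower, beside 6.23% and 3.19%. Endothelial-like cells had 0 of 8 in either direction, beside 1.59% and 2.25%, and neutrophil-like cells 0 of 7, beside 4.17% and 3.22%. With TMM factors the split of all genes in Kupffer-like cells became 4.06% higher and 4.44% lower, with the same 3 members. The Kupffer-like members were Mthfd2, Shmt2 and Psat1, and the monocyte-like ones Shmt2, Phgdh, Psat1 and Asns.

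For dHep_IR against FL_control, 1 of 8 measured members was higher and 4 lower in endothelial-like cells, beside 8.51% and 18.8% of all genes. In Kupffer-like cells it was 2 higher and 1 lower of 6, beside 6.39% and 14.2%, and in monocyte-like cells 1 and 0 of 8, beside 7.76% and 15.6%. Neutrophil-like cells had 2 higher and 3 lower of 7, beside 8.99% and 36.6%, and T-like cells 3 and 0 of 7, beside 4.55% and 8.34%. NK or ILC1-like cells had 4 higher and 0 lower of 6 (3.44% and 18.2%), cDC-like cells 4 and 0 of 8 (4.14% and 19.6%) and cholangiocyte-like cells 2 and 1 of 6 (5.81% and 15.2%). With TMM factors the split of all genes became 26.8% higher and 15.7% lower in neutrophil-like cells, with 2 members higher and 2 lower, 12.1% and 10.3% in monocyte-like cells, and 10.1% and 7.94% in cholangiocyte-like cells, with 3 members higher and 1 lower. It was 6.21% and 12.3% in NK or ILC1-like, 6.96% and 13.9% in cDC-like and 7.89% and 11.5% in Kupffer-like cells, where Atf4 joined the higher members. In endothelial-like cells it was 9.77% and 16%, with 1 member higher and 3 lower, as Shmt2 left the lower ones at a log2 ratio of -0.91. Over all 3 comparisons, the values nearest the threshold were both of dHep_IR against FL_control, Atf4 at a ratio of 1.96 in Kupffer-like cells just outside it and Shmt2 at 2.04 in T-like cells just inside it.

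In Kupffer-like cells of dHep_IR against FL_IR, single genes of several pathway lists stood higher beside Mthfd2, while most genes of those lists did not pass the threshold. Over all genes 3.03% were past it on the higher side and 6.61% on the lower. Of 6 measured serine and glycine synthesis genes, 3 were at least 2-fold higher and 0 lower, with a median log2 ratio of 1.09 beside -0.17 over all genes. They were the members Psat1 and Shmt2, and Psph, the last step of serine synthesis, at 2.46-fold (1.10 to 6.01). Of 20 aminoacyl-tRNA synthetases, which charge tRNAs with amino acids, 2 were higher and 0 lower, with a median of 0.68. These were Cars at 3.28-fold (1.92 to 5.87) and Yars at 2.40-fold (1.53 to 3.86).

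Among amino acid transporters 2 of 8 were higher in the same cells, Slc7a1, which carries arginine and lysine, at 7.37-fold (4.30 to 13.6), and Slc7a5, which carries large neutral amino acids, at 5.22-fold (2.17 to 15.2). The median of that list was -0.04, and its genes summed to 621 CPM in FL_IR and 575 CPM in dHep_IR. Of 11 purine synthesis genes 2 were higher, Pfas at 3.99-fold (1.61 to 11.9) and Adsl at 2.09-fold (1.38 to 3.22), with a median of 0.55. Of 13 folate cycle genes 2 were higher, the members Mthfd2 and Shmt2, and 1 lower, Aldh1l1, with a median of 0.06.

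Among ATF4-linked stress regulators of Kupffer-like cells, single genes passed the threshold in either direction, beside the same 3.03% higher and 6.61% lower of all genes. Of 14 measured ATF4-linked regulators, Nupr1, a stress-induced chromatin protein, was 4.76-fold higher (3.33 to 6.96), and Ddit4, an inhibitor of mTORC1, was at a ratio of 0.292 (0.249 to 0.341). The list median was -0.25, near the -0.17 over all genes. Of 17 genes of the unfolded protein response outside ATF4, 0 passed the threshold, with a median of 0.08. Of 7 mitochondrial chaperone and protease genes 1 was higher, Hspd1 at 2.10-fold (1.78 to 2.50), with a median of 0.67. Meanwhile 6 of 16 dissociation stress genes were lower, with a median of -0.85, and 7 of 12 measured hepatocyte transcripts were lower, with a median of -1.68. The part of handling and of free hepatocyte RNA in the results was not tested.

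The serine members also stood higher in monocyte-like cells. For dHep_IR against FL_IR, 3 of 6 measured serine and glycine genes were higher, with a median log2 ratio of 1.06 beside -0.04 over all genes. Of all genes 7.04% were past the threshold on the higher side. These 3 were Psat1, Shmt2 and Phgdh, members already counted above, and no other gene of that list passed on the higher side. Of 20 aminoacyl-tRNA synthetases 0 were higher, with a median of 0.34. Aldh18a1, the first enzyme of proline synthesis, was 12.7-fold higher (3.40 to 107) on 2 and 75 UMIs, and Slc7a5 was 3.16-fold higher (2.30 to 4.46). Of 9 measured proliferation genes 8 were higher, with a median of 2.64.

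In endothelial-like cells of FL_IR against FL_control several p53 targets stood far higher. Of 11 measured, 6 were higher and 3 lower, with a median log2 ratio of 1.69 beside -0.10 over all genes, of which 9.56% were higher and 16.2% lower. Those 6 included the member Sesn2. Phlda3 was 24.4-fold higher (21.8 to 27.5), Cdkn1a, the cell cycle inhibitor p21, 10.6-fold (10.2 to 11) and Mdm2, the ligase that degrades p53, 7.62-fold (7.09 to 8.19). The ATF4-linked regulators were split, with 5 of 17 higher and 5 lower beside those shares and a median of -0.54. The members Ddit3, Trib3 and Chac1 were among the lower and Sesn2 among the higher. Those higher included Stc2 at 20.5-fold (10.1 to 48.6) and Cebpb at 13.7-fold (13.1 to 14.4).

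Transporters in the same cells were 5 of 9 higher and 1 lower, beside 9.56% and 16.2% of all genes, with a median of 1.04, led by the glycine transporter Slc6a9 at 26.9-fold on 41 and 2 UMIs (6.99 to 230) and the glutamine transporter Slc1a5 at 6.60-fold (5.12 to 8.61). Of 20 aminoacyl-tRNA synthetases 1 was lower and 0 were higher. Of 17 unfolded protein response genes 4 were lower, among them Pdia6 at a ratio of 0.320 (0.302 to 0.339) and Calr at 0.368 (0.357 to 0.380), with a median of -0.58.

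The genes most like Mthfd2 in their pattern were ranked over the 24 class sums. Among 10742 genes with at least 500 UMIs, Pearson's r of log2(CPM + 1) was highest for Eif5a at 0.82, Ddx39 at 0.80, Nubp1 at 0.79, Cks1b and Bzw2 at 0.78, Lsm12 and Lsm4 at 0.77 and Dnajc2 at 0.76. Of the members, Psat1 was at 0.88 on too few UMIs to be ranked, Phgdh at 0.65 and Shmt2 at 0.64. Atf4 was at 0.12, Ddit3 at -0.12, Asns at -0.14, Chac1 at -0.34 and Sesn2 at -0.42. The points share 3 libraries and differ in depth, so these values describe this set of sums and carry no test.

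**Figure D4:**
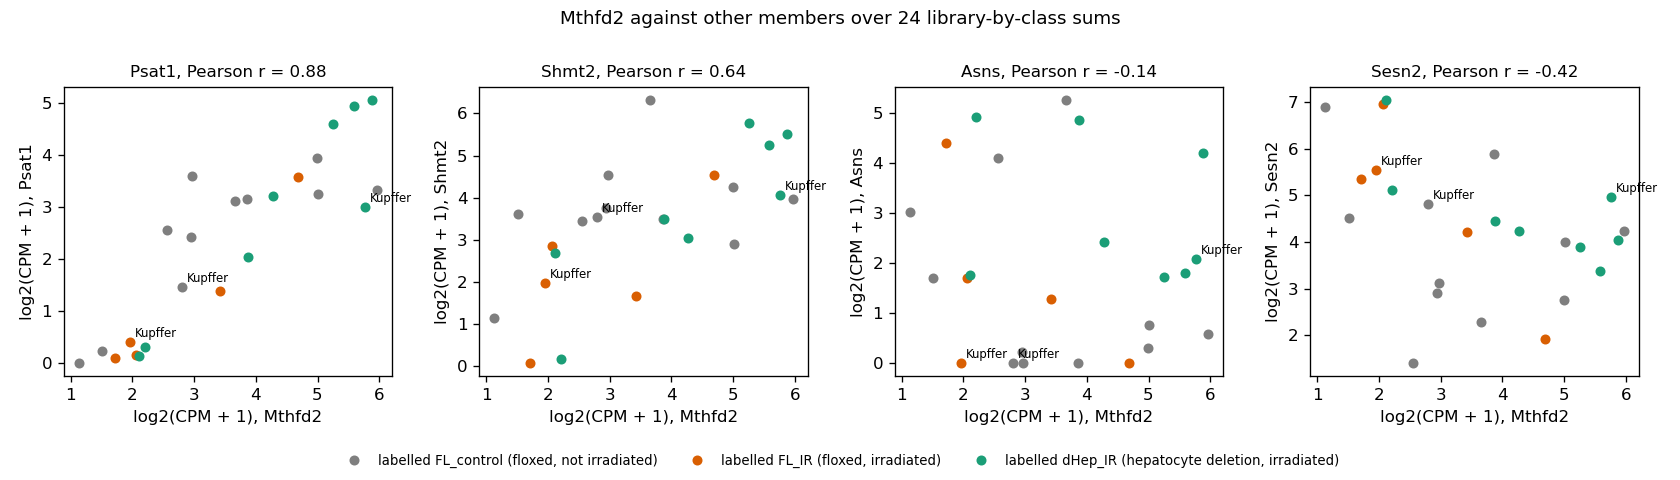
Level of Psat1, Shmt2, Asns and Sesn2 against that of Mthfd2 over the 24 sums of a class and library with at least 50 cells, as log2(CPM + 1), 1 point per sum coloured by library. Psat1 follows Mthfd2 with r of 0.88 and Sesn2 has r of -0.42.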

How the data were processed

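Each deposited file holds unnormalized whole-number UMI counts for every gene in every barcode. The submitters' processing notes name Cell Ranger 6.1.1, CASAVA 1.8 and Seurat 4.0.3 with the mm10 build. The libraries FL_control, FL_IR and dHep_IR held 52858425, 59228905 and 78694038 UMIs. The submitters' annotation version and any removal of free RNA are not given in the sources used here, and none was removed here.

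Cells with at least 500 UMIs, 250 genes and at most 25 percent mitochondrial UMIs were kept (6618, 6780 and 7552). Scrublet in scanpy 1.11.5 was run per library for an expected 6 percent and marked 160, 235 and 291 doublets (2.42, 3.47 and 3.85 percent), which were removed. Log-normalized counts, 2000 variable genes, 30 principal components and 15 neighbours gave 29 Leiden clusters at resolution 1 (igraph 0.11.9), without batch integration. Clusters were named X-like from markers, and the scoring rule was set after the clusters had been seen. Endothelial clusters were joined, and clusters that met no rule stayed unnamed.

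UMIs were summed per library and class of at least 50 cells and divided by the class total. Intervals are exact Poisson for levels, exact conditional for ratios and Clopper-Pearson for shares, at 95 percent (scipy 1.17.1). The calculation was tested on simulated counts. A sum of 0 was given a floor of 3 counts in a ratio. Named genes are the 10 members, up to 4 genes of each pathway list with the largest ratios past the threshold, the 8 genes most like Mthfd2, and check lists beside the results. Alternatives were TMM factors (edgeR 4.0.16), the mean of per-cell CPM, doublets kept, a stricter cell filter, resolution 2, clustering without the members and lists, cells without a proliferation UMI, thinning, and other thresholds. Alternatives by single clusters or markers were added after seeing the data. The members and lists were chosen with earlier results of these data known. Coordinates are from GENCODE vM21, promoters from RefSeq.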

Additional observations from a re-analysis of the deposited data

Results flagged for a closer look

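Sesn2 and Shmt2 stood higher in 1 class and lower in another under the same comparison, and these opposite directions were not tested, since each group is 1 library. Sesn2 in FL_IR beside FL_control had a log2 ratio of 2.51 in endothelial-like and -1.56 in neutrophil-like cells. For dHep_IR against FL_control, that of Sesn2 was 2.59 in endothelial-like and 3.67 in cholangiocyte-like cells and -1.80 in neutrophil-like cells. For the same libraries, the log2 ratio of Shmt2 was 1.03 in T-like, 1.27 in NK or ILC1-like and 1.60 in cDC-like cells, and -1.04 in endothelial-like cells. With TMM factors the lower values shrank to less than 2-fold, -0.71 and -0.86 for Sesn2 and -0.91 for Shmt2. The higher values stayed past 2-fold.

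Signal also appeared in cells that no comparison used. Sesn2 was at 138.7 CPM in FL_IR and 146.5 CPM in dHep_IR in the unnamed cluster 25, whose cells were shallow and scored for endothelial markers. Mthfd2 was at 3.57 CPM in FL_control in the unnamed cluster 13, which carried genes of peritoneal macrophages.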

How the results depend on the processing

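Over the alternatives run, 935 member values stayed within their counting interval and 87 moved outside it. A further 6, past the threshold as first reported, turned to 0 or to the opposite sign. Sign changes of values not past the threshold, such as Atf4 in neutrophil-like cells with TMM factors, were not counted among the 6. The main values were steadier. Over its alternatives the log2 ratio of Mthfd2 in Kupffer-like cells, 4.21 for dHep_IR against FL_IR, ran from 3.59 to 4.65, and that of Sesn2 in endothelial-like cells, 2.51 for FL_IR against FL_control, from 2.43 to 2.56.

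For FL_IR against FL_control, the log2 ratio for Mthfd2 of monocyte-like cells was -2.30 with doublets kept. The past-threshold values that turned were Sesn2 in T-like cells of FL_IR against FL_control (0.62 with doublets kept, 0.0 thinned) and, for dHep_IR against FL_control, Asns and Shmt2. Asns turned in monocyte-like cells (0.0 thinned) and in cDC-like cells (0.0 thinned, 0.0 without proliferation UMIs). Shmt2 turned in cDC-like cells (-0.089 without proliferation UMIs). The cause was not tested.

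The count of members past the threshold moved with the settings. For FL_IR against FL_control it went from 2 to 4 in Kupffer-like cells with doublets kept, at Leiden resolution 2, at 1.5-fold and with no minimum, from 3 to 5 in monocyte-like cells with no minimum, and from 1 to 0 in T-like cells with doublets kept or at resolution 2. For dHep_IR against FL_IR it went from 0 to 1 in endothelial-like cells with members left out of clustering or at 1.5-fold, from 3 to 5 in Kupffer-like cells with doublets kept, at resolution 2 or at 1.5-fold, and from 0 to 1 at 1.5-fold and 2 with no minimum in neutrophil-like cells. In T-like cells it went from 1 to 0 at resolution 2, 4 at 1.5-fold and 3 with no minimum. For dHep_IR against FL_control it went from 3 to 7 with doublets kept and 6 at resolution 2 in Kupffer-like cells, from 1 to 2 with doublets kept and 3 with members left out or at 1.5-fold in monocyte-like cells, and from 3 to 0 at resolution 2, 6 at 1.5-fold and 5 with no minimum in T-like cells. In NK or ILC1-like cells it went from 4 to 2 with members left out, and in cDC-like cells from 4 to 2 at resolution 2. No paired analysis was possible because each group holds 1 library. Depth limits Trib3, Chac1, Phgdh and Psat1, which had under 20 UMIs in several classes.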

Other observations

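Several values lie outside the comparisons. B-like cells were nearly confined to FL_control, with 1416, 21 and 11 cells, and in FL_control they held 288 of the 670 Phgdh UMIs, or 43.0%, at 47.1 CPM. Plasmacytoid dendritic (pDC-like) cells, 135, 0 and 3 in number, had Phgdh at 67.5 CPM and Mthfd2 at 13.5 CPM in FL_control. Atf4 was highest in B-like cells of FL_control, at 503 CPM among the classes with at least 50 cells.

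Genes of the endoplasmic reticulum differed between the irradiated libraries in neutrophil-like cells. Of 17 unfolded protein response genes outside ATF4, 7 were at least 2-fold higher in dHep_IR than in FL_IR and 0 lower, with a median log2 ratio of 0.48, beside 4.17% of all genes higher and 3.22% lower. Sdf2l1 was 7.08-fold higher (4.56 to 11.5), Pdia6 3.94-fold (3.45 to 4.52) and Hsp90b1 3.26-fold (2.97 to 3.58), each a chaperone or folding enzyme. Ddit3 and Chac1 did not stand higher in dHep_IR in these cells, with ratios of 0.874 (0.791 to 0.966) and 0.841 (0.405 to 1.73). Haemoglobin genes summed to 0.560 CPM in FL_IR and 92.7 CPM in dHep_IR there and proliferation genes to 3.08 and 10.2 CPM. Monocyte markers summed to 2781 and 6299 CPM in these neutrophil-like cells, where the 17 genes summed to 540 and 806 CPM, beside 2640 and 3154 CPM in monocyte-like cells. The part of other cells in the result, and of the different mix of neutrophil-like clusters in these libraries, was not tested.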
